A study of Homo sapiens and Mus musculus with 34 samples.

Results

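The response of 2 neuroblastoma cell lines, Kelly and BE(2)C, to the same short exposure to CYC065 was compared gene by gene. The comparison used 12 of the 34 arrays of the series, chosen by their labels: 3 arrays of untreated Kelly cells, 3 of Kelly cells given 1 µM CYC065 for 1 h, 3 of untreated BE(2)C cells and 3 of BE(2)C cells given 1 µM CYC065 for 1 h. Both are established human lines that carry extra copies of the MYCN oncogene, and both were grown in the same medium. The control cells are labelled untreated, while the study's design text describes them as given the equivalent of DMSO, the solvent, so the presence of solvent in them was not settled. The design text calls the 3 arrays of each group biological replicates. Total RNA was hybridised to an Affymetrix human transcriptome array and 32803 genes were tested.

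CYC065 is an inhibitor of cyclin-dependent kinases whose targets include CDK2 and CDK9. CDK9 pairs with cyclin T in P-TEFb, the kinase that releases paused RNA polymerase II into productive elongation, so transcripts that decay quickly are the first to be lost when it is inhibited. Neuroblastoma cells with amplified MYCN depend on that gene and on a small circuit of lineage transcription factors (HAND2, GATA3, ISL1 and TBX2 among them), many of them encoded by short-lived transcripts.

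Throughout, the change in a line is the mean log2 level of its 3 treated arrays minus that of its 3 untreated arrays. The difference is the change in Kelly minus the change in BE(2)C, so that a negative difference means a larger fall, or a smaller rise, in Kelly. A gene was called when the Benjamini-Hochberg adjusted p of limma's moderated test over all 32803 genes was under 0.05, and "rose" and "fell" refer to called genes. The same mass of RNA, 100 ng, went into every reaction, so a loss shared by all transcripts would not appear in these values, and a fall cannot be told apart from a lower share of the cells that carry the transcript.

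The arrays resembled their replicates closely, with correlations between 0.9951 and 0.9985 over genes within a group. All 15 neuroblastoma markers had a mean level of at least 6 in both untreated lines, and their mean lay between 9.70 and 9.75 on the untreated Kelly arrays and between 9.84 and 9.91 on the untreated BE(2)C arrays. The marker lists of Schwann, fibroblast, immune, endothelial and epithelial cells had mean levels of at most 6.24 on any array. Of 9 fibroblast markers 5 were at 6 or more in each untreated line, with a highest level of 8.28 in Kelly and 10.97 in BE(2)C. The fibroblast mean was 5.26 to 5.27 on untreated Kelly and 6.10 to 6.15 on untreated BE(2)C arrays. Of 8 epithelial markers 2 were at 6 or more in untreated Kelly and 4 in untreated BE(2)C. The median of the array's background probes was 3.29 to 3.31 in untreated Kelly and 3.38 to 3.49 in treated Kelly, against 3.66 to 3.71 and 3.72 to 3.86 in BE(2)C. The 2 lines also carry different labelling notes, and the authors' deposited table of results covers BE(2)C and SH-SY-5Y only. Cell line and array set therefore coincide and cannot be told apart. Whether the sets were normalized together is not given in the sources used here, so levels set side by side across the lines below may not share a scale. A constant offset between the sets cancels in the change of a line, but a difference in scale does not. Such a difference would enter the sizes of change and the numbers of called genes compared below, and was not tested.

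More genes were called in Kelly than in BE(2)C, and more of them changed by at least 2-fold. In Kelly 3723 genes fell (11.3% of those tested) and 3070 rose (9.36%), 323 and 29 of them by at least 2-fold. The number that rose in Kelly was 1291 with each array centred on its median and 6150 with centring on housekeeping genes, beside 3871 and 3292 that fell. In BE(2)C 1685 genes fell (5.14%) and 586 rose (1.79%), 45 and 17 by at least 2-fold. The difference between the lines was itself called for 1396 genes (4.26%), of which 1157 had the lower change in Kelly (3.53%) and 239 the higher (0.729%). A 2-fold or larger difference was reached by 59 of the lower and 20 of the higher genes. The median change of all genes was 0.07 in Kelly and 0.01 in BE(2)C, and the median difference was 0.04.

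Most genes with the lower change in Kelly fell in both lines or fell in Kelly alone. Of the 1157 genes, 581 fell in both lines and 549 fell in Kelly and were not called in BE(2)C, while the remainder comprised 17 that rose in BE(2)C and were not called in Kelly, 3 that moved oppositely, 3 that rose in both and 4 that were called in neither. Among the 239 with the higher change in Kelly, 142 rose in Kelly and were not called in BE(2)C, 62 fell in BE(2)C and were not called in Kelly, 11 rose in both, 8 moved oppositely, 6 fell in both and 10 were called in neither. A gene not called in BE(2)C is not shown to be unchanged there. Of the 1157, 103 had a mean level under 5, counted here as dim, in untreated BE(2)C. Of the 239, 105 had a mean level under 5 in untreated Kelly.

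**Figure D1:**
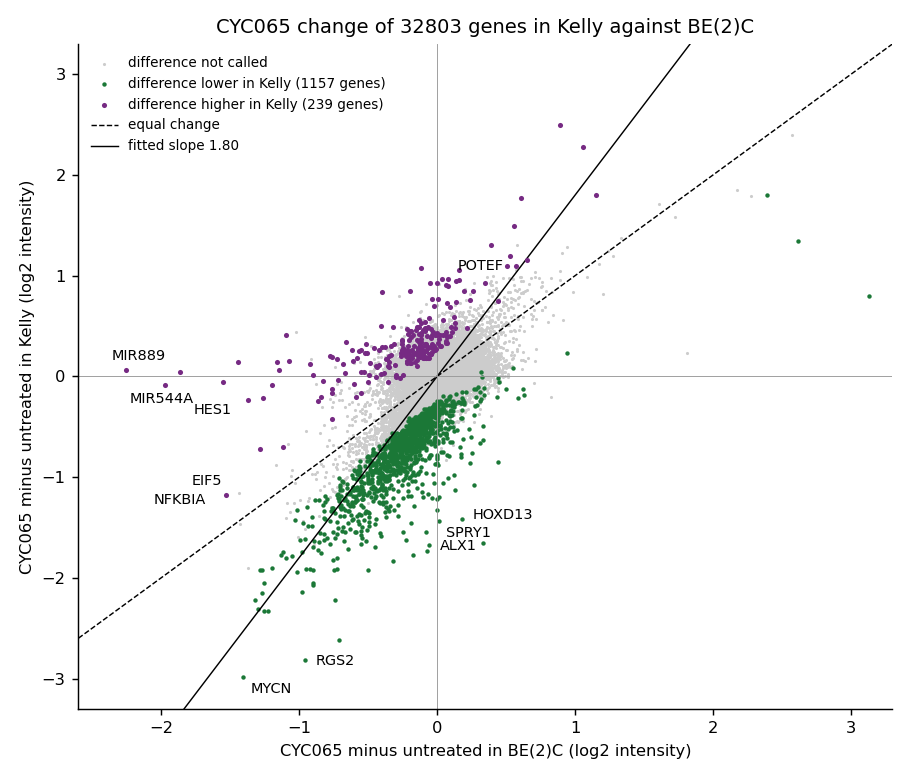
Change after CYC065 (log2, treated minus untreated, 3 arrays against 3) in BE(2)C on the horizontal axis and in Kelly on the vertical axis, 1 point a gene, with the called differences coloured by direction. The points that fell in both lines lie mostly below the line of equal change, and the drawn slope of 1.80 is the ratio of response sizes described in the text.

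The falls shared by the 2 lines were mostly larger in Kelly. Among the 1467 genes that fell in both, 1324 (90.3%) fell further in Kelly, and the ratio of the Kelly change to the BE(2)C change had a median of 1.72, with quartiles of 1.31 and 2.16. The median change of these genes was -0.63 in Kelly and -0.34 in BE(2)C. By mean untreated level, the median ratio was 1.63 for the 124 genes with a mean untreated level under 6, 1.80 for 342 genes between 6 and 7, 1.76 for 529 between 7 and 8, 1.68 for 323 between 8 and 9, and 1.55 for the 149 brightest. For the 262 genes that rose in both lines the ratio was 1.18, with quartiles of 0.91 and 1.49. Across all genes the 2 changes had a Pearson r of 0.613 and a Spearman rho of 0.425, given as a description because genes on shared arrays are not independent.

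One common ratio was then removed. The slope of the Kelly change against the BE(2)C change was 1.80 over the 7538 genes whose average change was called. It was taken as the principal axis through the origin, not as a regression of 1 change on the other. The BE(2)C change was multiplied by this slope before subtraction. This scaled difference was called for 148 genes (0.451%), 73 lower in Kelly (0.223%) and 75 higher (0.229%). The slope was estimated from the same arrays and taken as known, so these p-values are somewhat too small. Of the 1157 genes with the lower change in Kelly, 66 were still lower after scaling, and of the 239 with the higher change 58 were still higher. Only 21 lower and 22 higher scaled calls were made in every one of 12 refits that each left out 1 array. Among the lower were RGS2, PLK2, HOXD13 and the small nuclear RNA names RNU1-92P, RNU1-122P, RNU1-59P, RNU5E-4P, RNU2-63P and RNU1-85P. Among the higher were EIF5, NFKBIA, ZNF792, HIST1H2AB, MIR889, MIR544A, MIR382, MIR323B, MIR1185-1 and SNORD113-1. Genes that rose in both lines had a median ratio of 1.18, so multiplying their BE(2)C rise by 1.80 moves them towards a lower scaled difference. A lower scaled difference can thus be a smaller rise in Kelly rather than a larger fall.

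MYCN, the amplified oncogene of both lines, fell in both and further in Kelly. Its log2 levels were 11.75, 11.73 and 11.73 in untreated Kelly and 8.73, 8.70 and 8.82 after CYC065. The BE(2)C levels were 11.63, 11.76 and 11.76 untreated and 10.35, 10.30 and 10.28 treated. The groups did not overlap in either line, and the untreated levels of the lines were nearly equal. MYCN fell 7.91-fold in Kelly and 2.65-fold in BE(2)C, a difference of -1.58 ± 0.07 (SE, adjusted p = 2.29e-06). After scaling by the common ratio the MYCN difference was -0.45 and not called. In the wider network of 13 MYC, MAX and MXD genes, MXD1, a partner of MAX that represses MYC targets, and MGA, another MAX partner, also had a lower change in Kelly, though the call of MGA was lost in 11 of the 12 refits that left out an array. MXD1 had changes of -0.88 in Kelly and -0.40 in BE(2)C. With MYCN, 3 of the 13 genes (23.1%) had the lower change in Kelly, against 3.53% of all genes. MYC itself was dim in both lines and its difference, 0.05, was not called.

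Adrenergic transcription factors, the lineage circuit of noradrenergic neuroblastoma, mostly fell further in Kelly. Of 24 members 14 had the lower change in Kelly and 0 the higher, against 3.53% and 0.729% of all genes, with a median change of -0.65 in Kelly and -0.30 in BE(2)C. The list was chosen with earlier results of these data known, and its count describes these arrays only.

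INSM2, a zinc finger repressor of neuroendocrine cells, went from 9.83, 9.72 and 9.83 to 7.35, 7.43 and 7.60 in Kelly and from 8.86, 8.71 and 8.91 to 7.62, 7.41 and 7.69 in BE(2)C. The groups were separate in both lines, and the changes were -2.33 and -1.25 (difference -1.08 ± 0.12, adjusted p = 0.000719). ISL1, a LIM homeobox factor, had changes of -1.63 and -0.82, and TBX2, a T-box factor, of -1.41 and -0.61. The scaled differences of INSM2, ISL1 and TBX2 were not called.

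The 2 HAND genes, basic helix-loop-helix factors of the sympathetic lineage, moved less in BE(2)C. HAND1 had changes of -1.39 in Kelly and -0.37 in BE(2)C, and HAND2 of -0.63 and -0.16, the latter not called. GATA2, GATA3, TFAP2B, SATB1, INSM1 and HEY1 were also among the 14. KLF7 was a counterexample: it fell in both lines, from 9.21, 9.15 and 9.33 to 8.30, 8.20 and 8.28 in Kelly and from 9.69, 9.75 and 9.79 to 8.91, 8.84 and 8.84 in BE(2)C. Its difference of -0.09 was not called, and its scaled difference of 0.62 was called higher, a call kept in only 1 of the 12 refits. Of 30 mesenchymal transcription factors 5 had the lower change in Kelly (TWIST1, FOSL2, SOX9, NR3C1 and ZNF217) and 1, SNAI2, the higher, a call lost in 8 of the 12 refits. These were 16.7% and 3.33% of the list, against 3.53% and 0.729% of all genes.

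**Figure D2:**
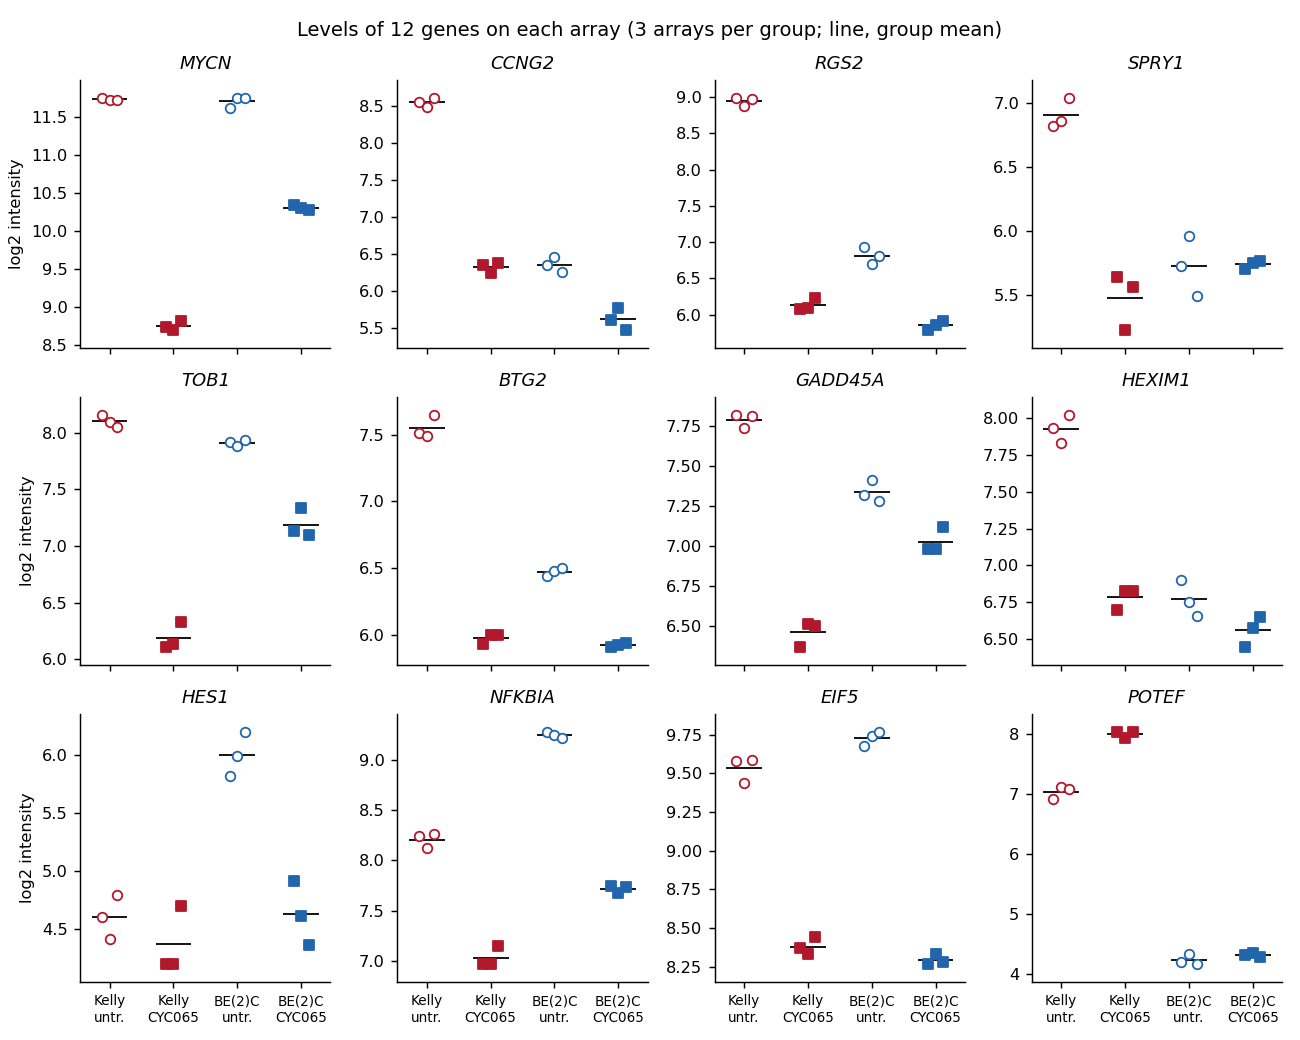
Log2 level on each of the 12 arrays, 1 panel a gene, in the order untreated Kelly, treated Kelly, untreated BE(2)C and treated BE(2)C, with points for arrays and a bar at the mean of 3. MYCN, CCNG2, TOB1 and RGS2 step down further in Kelly, HES1 steps down in BE(2)C, and POTEF steps up in Kelly.

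Some regulators of signalling also had the lower change in Kelly. RGS2, which speeds the switching off of G proteins, had levels of 8.99, 8.88 and 8.97 in untreated Kelly and 6.08, 6.09 and 6.23 after CYC065. The BE(2)C levels of RGS2 went from 6.93, 6.69 and 6.81 to 5.79, 5.86 and 5.91. The groups were separate in both lines, with a 7.03-fold fall in Kelly, a 1.94-fold fall in BE(2)C and a difference of -1.86 ± 0.10 (adjusted p = 6.12e-06). RGS2 was also lower after scaling. Its relatives RGS16, RGS17 and RGS4 also had the lower change in Kelly, making 4 of 19 RGS genes (21.1%, against 3.53% of all genes), with RGS16 at -2.07 and -0.90. The median RGS gene had a change of 0.06 in Kelly and 0.02 in BE(2)C.

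Feedback inhibitors of growth factor signalling included 6 of 25 genes (24%, against 3.53% of all genes) with the lower change in Kelly, namely SPRY1, SPRY2, DUSP4, DUSP6, DUSP7 and ERRFI1, and 0 with the higher. SPRY1, an inhibitor of receptor kinase signalling, stood apart. It went from 6.82, 6.86 and 7.04 to 5.64, 5.23 and 5.56 in Kelly. In BE(2)C its levels were 5.73, 5.96 and 5.49 untreated and 5.70, 5.75 and 5.77 treated, so those groups overlapped. The SPRY1 difference was -1.45 ± 0.17 (adjusted p = 0.000868). SPRY2, by contrast, fell in both lines, by 1.69 and 0.90 on the log2 scale. DUSP6, a phosphatase that acts on ERK, had changes of -1.49 and -0.50 on its brighter row, while a second row gave -0.06 and -0.28, so the 2 rows disagree.

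Immediate early genes, which are induced quickly by growth signals, held 7 of 31 members (22.6%, against 3.53% of all genes) with the lower change in Kelly. PLK2, a polo-like kinase, went from 6.33, 6.40 and 6.61 to 4.52, 4.48 and 4.58 in Kelly and from 5.07, 5.02 and 5.04 to 4.52, 4.59 and 4.52 in BE(2)C. Both lines therefore reached the same dim level from different starting levels, with falls of 3.78-fold and 1.42-fold and a difference of -1.42 (adjusted p = 4.84e-05). The AP-1 gene JUN fell in both lines (-0.36 and -0.41), with a difference of 0.05 and a 95% interval of -0.15 to 0.26, and FOS, at about 5 in every group, was called in neither line. EGR1 had changes of -0.05 in Kelly and -0.41 in BE(2)C, where it fell, but the difference of 0.35 had an adjusted p of 0.0509. Among 16 Kruppel-like factors KLF3, KLF5, KLF6 and KLF11 had the lower change in Kelly and KLF2 the higher, a call lost in 10 of the 12 refits. KLF6, a growth-inhibiting zinc finger factor, had changes of -1.92 in Kelly and -0.90 in BE(2)C.

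Of 8 factors that recruit the deadenylase machinery to messenger RNA, 6 fell in Kelly and 5 in BE(2)C. The lower change in Kelly was called for 6 (75%, against 3.53% of all genes), and the median changes were -1.38 and -0.55. TOB1, an antiproliferative adaptor of the CCR4-NOT complex, had levels of 8.16, 8.10 and 8.05 in untreated Kelly and 6.11, 6.13 and 6.33 after treatment. The BE(2)C levels of TOB1 were 7.92, 7.88 and 7.94, then 7.13, 7.34 and 7.10. The starting levels were close, and the falls were 3.77-fold and 1.66-fold (difference -1.19 ± 0.11, adjusted p = 0.000212). BTG2, of the same protein family, fell 2.98-fold and 1.46-fold, and ZFP36L2, which binds AU-rich elements, had changes of -2.33 and -1.23. BTG1, BTG3 and TOB2 were the other called members. ZFP36, the founding AU-rich element binding protein, was not called in either line or in the difference.

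A minority of growth arrest genes had the lower change in Kelly. It was called for 7 of 19 FOXO factors and targets (36.8%) and for 8 of 19 p53 targets (42.1%), against 3.53% of all genes, with 0 higher in each list. CCNG2, an unconventional cyclin linked to cell cycle exit, went from 8.55, 8.48 and 8.61 to 6.35, 6.24 and 6.38 in Kelly and from 6.34, 6.46 and 6.25 to 5.60, 5.77 and 5.47 in BE(2)C. Its untreated level was higher in Kelly, and its falls were 4.67-fold and 1.67-fold (difference -1.48, adjusted p = 8.69e-05). A second, dimmer row of CCNG2 gave changes of -0.57 and -0.08. GADD45A, a stress sensor induced by p53 and FOXO factors, had changes of -1.33 and -0.31, and CITED2, a transcriptional coactivator-binding protein, of -1.13 and -0.28, the latter not called.

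Among p53 targets, TP53INP1, an antiproliferative stress protein, fell in Kelly alone. It went from 7.37, 7.39 and 7.55 to 6.35, 6.50 and 6.50 there, and was 4.77, 4.61 and 4.73 untreated and 4.63, 4.91 and 4.96 treated in BE(2)C. The BE(2)C groups overlapped at a level near the dim end of the array, and the difference was -1.11 ± 0.13 (adjusted p = 0.000719). AEN, a nuclease, and PPM1D, a phosphatase that dampens p53, fell in both lines, by 1.75 and 0.84 and by 1.49 and 0.91 on the log2 scale. MDM2, SESN1, SESN2 and ZMAT3 had smaller differences in the same direction. CDKN1A, the cyclin-dependent kinase inhibitor p21, fell slightly in Kelly (-0.25) and its difference of -0.23 had an adjusted p of 0.0711.

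The unfolded protein response list had 7 of 24 members (29.2%, against 3.53% of all genes) with the lower change in Kelly: ATF4, XBP1, HERPUD1, PPP1R15B, SESN2, CEBPG and VLDLR. HERPUD1, a component of endoplasmic reticulum associated degradation, had changes of -1.55 in Kelly and -0.42 in BE(2)C. PPP1R15B, which directs dephosphorylation of the initiation factor eIF2, had changes of -1.80 and -0.72. ATF4, the central transcription factor of the pathway, had changes of -0.86 and -0.37.

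Few genes of the machinery that CYC065 acts on differed between the lines. Of 31 P-TEFb, 7SK and elongation genes 3 (9.68%, against 3.53% of all genes) had the lower change in Kelly and 0 the higher. HEXIM1, which holds P-TEFb inactive in the 7SK particle, went from 7.93, 7.83 and 8.02 to 6.70, 6.83 and 6.83 in Kelly. HEXIM1 in BE(2)C was at 6.90, 6.75 and 6.66, then 6.45, 6.58 and 6.65. The treated arrays lay below the untreated in both lines, by a narrow margin in BE(2)C, where HEXIM1 was not called. It was 2.21-fold lower after treatment in Kelly and 1.16-fold lower in BE(2)C, with a difference of -0.93 ± 0.11 (adjusted p = 0.000776). ELL2 and LEO1, both elongation factors, were the other 2, and the call of ELL2 was lost in 7 of the 12 refits. CDK9 itself had changes of -0.13 in Kelly and -0.16 in BE(2)C and was called in neither line. CCNT1, its cyclin partner, fell in both lines, and the difference of -0.21 was not called.

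Mediator and transcriptional CDK genes held 4 of 23 (17.4%, against 3.53% of all genes) with the lower change in Kelly. MED17, a core Mediator subunit, went from 7.92, 7.88 and 7.97 to 6.40, 6.47 and 6.56 in Kelly, and from 8.22, 7.98 and 8.20 to 7.58, 7.80 and 7.55 in BE(2)C. From similar starting levels MED17 fell by 1.44 on the log2 scale in Kelly and by 0.49 in BE(2)C. CDK7, the kinase of TFIIH, CCNL1, a splicing-linked cyclin, and MED13 followed with smaller differences. The call of CCNL1 was lost in 6 of the 12 refits that left out an array. None of 12 RNA polymerase II subunit genes had a called difference, and POLR2A, its largest subunit, had changes of -0.06 and -0.12. Of 24 CLK, DYRK and SRSF splicing genes 16 fell in Kelly and 9 in BE(2)C, and the difference was called for CLK1, CLK2 and DYRK2. Without 1 array at a time the call of CLK2 was lost in 11 and that of DYRK2 in 9 of 12 refits.

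MCL1, the short-lived antiapoptotic protein of the BCL2 family whose loss is a known consequence of CDK9 inhibition, fell in both lines. It went from 9.48, 9.37 and 9.38 to 8.16, 8.20 and 8.37 in Kelly and from 9.49, 9.37 and 9.47 to 8.83, 8.76 and 8.76 in BE(2)C. The difference was -0.51 ± 0.09 (adjusted p = 0.00593), and its scaled difference of 0.02 was not called. PMAIP1, the proapoptotic NOXA gene, was the other of 17 family members with a lower change in Kelly. The 2 made up 11.8% of the list, against 3.53% of all genes. BCL2 fell in Kelly by 0.34 on the log2 scale, and its difference of -0.16 was not called.

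Cell division genes differed in a minority of members. The lower change in Kelly was called for 5 of 21 mitotic regulators (AURKA, PLK1, PLK4, TTK and KIF23) and 4 of 28 E2F and licensing genes (E2F2, E2F3, E2F8 and GMNN). It was called for 2 of 27 cell cycle kinases and cyclins (CCNG2 and CDKN1B), and for 1 of 25 homologous recombination genes (PALB2), near the 3.53% of all genes. AURKA, the kinase that stabilises the MYCN protein, had changes of -0.93 in Kelly and -0.30 in BE(2)C. E2F8, a repressor E2F, had changes of -1.49 and -0.68. In the ribosome biogenesis list 6 of 29 genes had the lower change in Kelly, led by RRS1, an assembly factor of the large ribosomal subunit, at -1.42 and -0.62. MIR17HG, the primary transcript of a microRNA cluster known as a MYCN target, had changes of -1.25 and -0.41 (difference -0.84, adjusted p = 0.0023), and was picked after its values had been seen. Its call was kept in 22 alternative settings, but the size of its difference depended on them, from -0.921 to -0.485.

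Zinc finger genes held the most called differences of any list. Of 518 ZNF genes 365 fell in Kelly and 252 in BE(2)C, beside 11.3% and 5.14% of all genes. The lower change in Kelly was called for 142 (27.4%, against 3.53% of all genes). The higher was called for 4 (0.772%), near the 0.729% of all genes. The median changes were -0.43 and -0.23. Of 39 ZBTB genes, zinc finger factors with a BTB domain, 10 (25.6%) had the lower change in Kelly and 0 the higher, with medians of -0.43 and -0.26. ZNF184 went from 6.89, 6.78 and 6.82 to 5.10, 5.23 and 5.28 in Kelly and from 5.91, 5.86 and 5.91 to 5.33, 5.49 and 5.31 in BE(2)C. Here too the treated levels of the lines were nearer to each other than the untreated levels.

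Some genes fell as far in BE(2)C as in Kelly, or further. EIF5, the GTPase activating factor of translation initiation, went from 9.58, 9.44 and 9.59 to 8.37, 8.33 and 8.44 in Kelly and from 9.68, 9.74 and 9.77 to 8.27, 8.33 and 8.28 in BE(2)C. The falls were 2.23-fold and 2.71-fold, and the difference of 0.28 had a 95% interval of 0.12 to 0.45 and an adjusted p of 0.0638. After scaling, EIF5 was called higher in Kelly (1.43). None of the 31 translation initiation factors had a called difference without scaling.

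NFKBIA, which encodes the inhibitor of NF-kB that is resynthesised after each pulse of signalling, also fell at least as far in BE(2)C. Its levels were 8.24, 8.12 and 8.26, then 6.97, 6.97 and 7.15 in Kelly, and 9.28, 9.25 and 9.22, then 7.74, 7.67 and 7.73 in BE(2)C. The fall was 2.26-fold in Kelly and 2.89-fold in BE(2)C, and the difference of 0.36 ± 0.08 passed the test (adjusted p = 0.0367). That call was lost in 14 of 23 alternative settings. ZNF792, by contrast, fell by 0.72 in Kelly and 1.29 in BE(2)C on the log2 scale (difference 0.57 ± 0.08, adjusted p = 0.00202). TRIB1, a pseudokinase, and SNAI1, a zinc finger repressor, fell by at least 2-fold in both lines with differences of -0.03 and -0.17, whose 95% intervals ran from -0.28 to 0.22 and from -0.59 to 0.25.

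HES1, a repressor induced by Notch, fell in BE(2)C alone. It went from 5.82, 5.99 and 6.20 to 4.91, 4.61 and 4.36 there. In Kelly it was already dim, at 4.60, 4.41 and 4.79 untreated and 4.20, 4.20 and 4.70 treated, with overlapping groups. The difference was 1.14 ± 0.24 (adjusted p = 0.02), and HES1 was not called in the refit without array 2 of untreated Kelly (adjusted p = 0.0531). A second row of HES1 gave changes of -0.22 in Kelly and -0.85 in BE(2)C, a smaller gap between the lines. The related Notch targets HEY1 and NRARP fell in both lines and further in Kelly, with changes of -1.38 and -0.58 and of -1.33 and -0.77. In the list of 28 Notch, TGF-beta, BMP and Wnt response genes 6 had the lower change in Kelly and HES1 alone the higher. These were 21.4% and 3.57% of the list, against 3.53% and 0.729% of all genes.

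Genes with the higher change in Kelly included a set of POTE genes. These primate-specific genes are near-identical copies whose probes may share transcripts, so the 6 of 9 called members are not independent. The 6 were 66.7% of the list, against 0.729% of all genes with the higher change in Kelly. POTEF went from 6.91, 7.12 and 7.08 to 8.04, 7.93 and 8.04 in Kelly, and stayed near the dim end in BE(2)C, at 4.20, 4.33 and 4.17 untreated and 4.31, 4.35 and 4.28 treated. The Kelly arrays were separate and the BE(2)C arrays overlapped. POTEF rose 1.95-fold in Kelly, with a difference of 0.88 ± 0.09 (adjusted p = 0.000438). The median change of the 9 genes was 0.91 in Kelly and 0.08 in BE(2)C.

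NFE2L3, a CNC family bZIP factor, rose in both lines. It went from 4.84, 5.14 and 5.50 to 7.37, 7.26 and 7.68 in Kelly and from 4.49, 4.42 and 4.43 to 5.58, 5.41 and 5.51 in BE(2)C. The difference was 1.22 ± 0.20 (adjusted p = 0.00558). A second, dimmer row of NFE2L3 gave changes of 0.30 and 0.03. NFE2L1, NFE2L2 and their target GCLC had the lower change in Kelly, so the CNC list of 18 held 3 lower and 1 higher. These were 16.7% and 5.56% of the list, against 3.53% and 0.729% of all genes.

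Of 1591 spliceosomal small nuclear RNA genes and pseudogenes 214 rose in Kelly and 120 in BE(2)C, while 17 and 13 fell. The rises were mostly among U1 and U2 names, and of 1235 U6 genes 46 rose in Kelly and 26 in BE(2)C, beside 9.36% and 1.79% of all genes. Of 101 genes and pseudogenes named for U1, the RNA that recognises 5' splice sites, 86 rose in Kelly and 61 in BE(2)C, with medians of 0.71 and 0.45. Among the 101, 3 had the lower change in Kelly, near the 3.53% of all genes. The higher change was called for 6 of the 101, against 0.729% of all genes. Of 69 U2 genes 41 rose in Kelly and 20 in BE(2)C, with medians of 0.40 and 0.24. RNU1-92P had the most negative difference of the U1 genes. It was 3.18, 2.98 and 3.19, then 3.89, 3.72 and 4.14 in Kelly, and 5.17, 5.20 and 5.67, then 8.47, 8.79 and 8.18 in BE(2)C. Its difference was -2.33 ± 0.24 (adjusted p = 0.000411). The U1, U2 and U6 groups were picked after values had been seen, and copies so alike can share probes.

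Of 473 5S ribosomal RNA genes and pseudogenes, also picked after values had been seen, 116 rose in Kelly and 8 in BE(2)C, where 9.36% and 1.79% of all genes rose. The higher change in Kelly was called for 19 of them, against 0.729% of all genes. The median 5S level was 4.26 in untreated Kelly, and the background probes rose between untreated and treated Kelly arrays over the ranges given above. The part of that rise in these dim genes was not tested.

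Other lists had no called difference. None of 57 cytosolic ribosomal protein genes, 35 nuclear oxidative phosphorylation genes, 31 proteasome subunits or 22 receptor kinases of neuroblastoma passed in either direction. Their median changes lay between 0.05 and 0.14 in Kelly and between -0.02 and 0.05 in BE(2)C, close to the medians of all genes. Of 25 catecholamine and chromaffin vesicle genes, the product side of the adrenergic lineage, 1 had the lower change in Kelly (SCG2, lost in 9 of the 12 refits), against 14 of 24 for the transcription factors of that lineage.

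**Figure D3:**
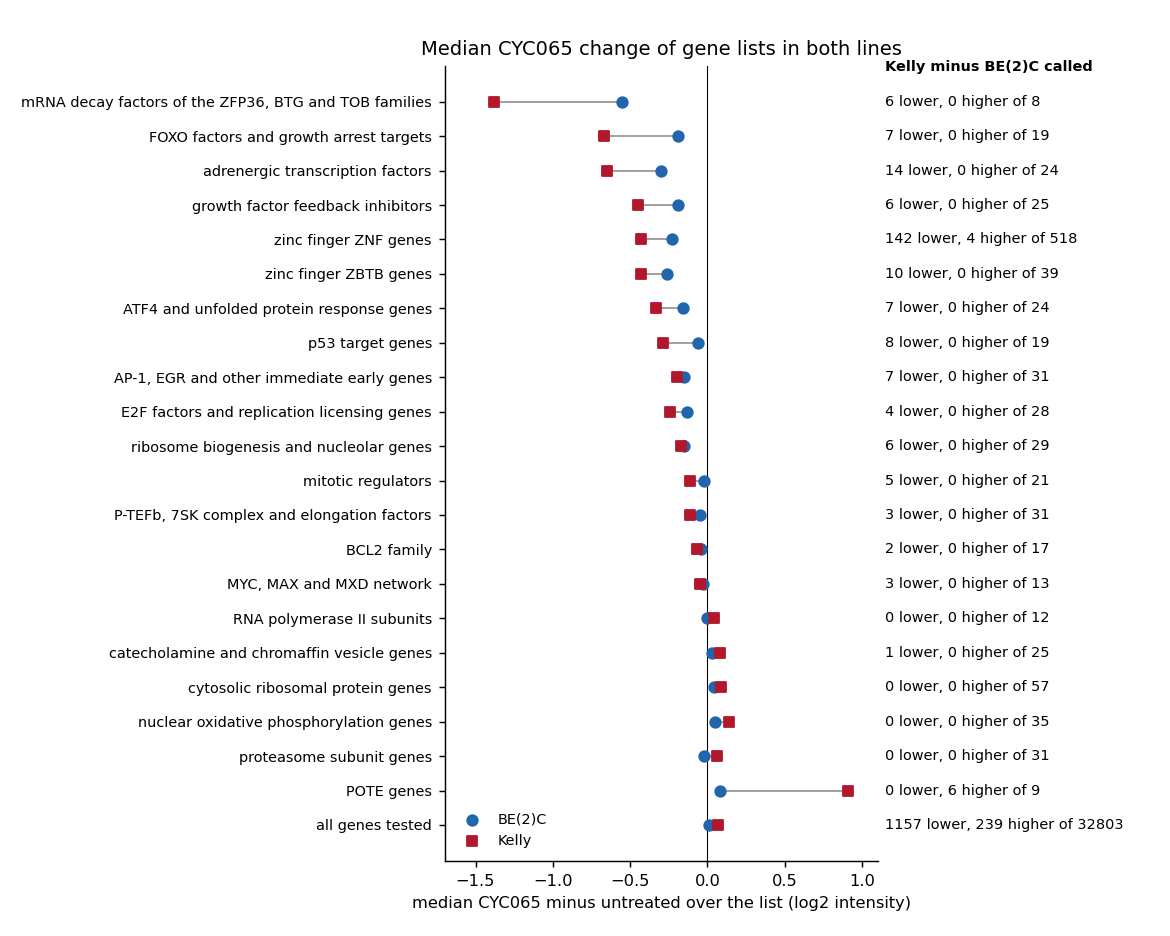
Median log2 change of each gene list after CYC065 in Kelly and in BE(2)C, with the number of measured genes and of called differences beside each list. The mRNA decay, FOXO and adrenergic lists sit furthest to the left in Kelly among the lists drawn, at -1.38, -0.67 and -0.65, and the POTE list furthest to the right.

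Some of the small RNA genes between DLK1 and DIO3 on chromosome 14 fell in BE(2)C. This imprinted region encodes a large microRNA cluster and the SNORD113 and SNORD114 families of C/D box snoRNAs, which are processed from long noncoding transcripts made on the maternal chromosome. The region was picked after values had been seen. Of its 53 measured microRNA genes 20 fell and 1 rose in BE(2)C and 0 fell in Kelly, and 17 had the higher change in Kelly and 0 the lower, against 37 and 7 of all 1071 microRNA genes, these included. Of its 40 snoRNA genes 9 fell and 3 rose in BE(2)C and 0 fell in Kelly, and 7 had the higher change in Kelly and 1 the lower. Over all genes 5.14% fell in BE(2)C and 11.3% in Kelly, and 0.729% had the higher and 3.53% the lower change in Kelly. The microRNA probes read precursor or primary transcript and mature RNA together, and which of these changed was not settled.

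Mature microRNAs of the region are given from RefSeq on GRCh38.p14, 5′ to 3′, with the seed (bases 2 to 8, which pair with targets) in capitals. The first 5 identify the genes with the largest called differences, and the last 3 are shown for their seeds. The 2 MIR1185 products share a seed, as do miR-541-3p and miR-654-5p, whose genes had smaller differences.
miR-889-3p, chr14:101047949-101047969, plus strand: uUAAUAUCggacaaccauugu
miR-544a, chr14:101048712-101048733, plus strand: aUUCUGCAuuuuuagcaaguuc
miR-382-5p, chr14:101054316-101054337, plus strand: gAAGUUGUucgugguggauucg
miR-1185-1-3p, chr14:101043029-101043050, plus strand: aUAUACAGggggagacucuuau
miR-323b-3p, chr14:101056269-101056290, plus strand: cCCAAUACacggucgaccucuu
miR-1185-2-3p, chr14:101044250-101044271, plus strand: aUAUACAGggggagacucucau
miR-541-3p, chr14:101064548-101064569, plus strand: uGGUGGGCacagaaucuggacu
miR-654-5p, chr14:101040234-101040255, plus strand: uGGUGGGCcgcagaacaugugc

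MIR889 was near the bottom of the scale in Kelly, at 2.22, 2.09 and 2.44 untreated and 2.33, 2.38 and 2.22 treated. In BE(2)C it went from 5.08, 4.63 and 5.09 to 2.59, 2.81 and 2.62. The Kelly groups overlapped and the BE(2)C groups were far apart, with a 4.78-fold fall and a difference of 2.32 ± 0.18 (adjusted p = 8.52e-05). MIR544A had changes of -0.08 in Kelly and -1.97 in BE(2)C, MIR382 of 0.14 and -1.44, and MIR323B of 0.14 and -1.16.

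The MIR1185 pair, which shares a seed, was called in opposite directions in the 2 lines. MIR1185-1 was 3.18, 3.48 and 3.48, then 3.76, 3.83 and 3.80 in Kelly, and 5.08, 4.97 and 5.07, then 4.00, 3.98 and 3.86 in BE(2)C. Both steps were clear of the spread between arrays, and the difference was 1.51. The Kelly levels of MIR1185-1 lay near those of the background probes, which also rose in Kelly, and the part of that rise was not tested. MIR1185-2 only just passed in Kelly (adjusted p = 0.0433), at 4.24, 4.48 and 4.60, then 4.83, 4.90 and 4.62. The other pair with a shared seed started higher: MIR654 was 5.91, 5.71 and 6.02 in untreated Kelly and 7.38, 7.34 and 7.37 in untreated BE(2)C. It had changes of -0.17 and -0.76 (difference 0.59, adjusted p = 0.0228, lost in 4 of the 12 refits), and MIR541 of 0.18 and -0.58 (difference 0.76, adjusted p = 0.0153).

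The snoRNA gene SNORD113-1 went from 5.16, 4.48 and 4.57 to 3.12, 2.85 and 2.64 in BE(2)C and stayed between 2.02 and 2.38 in Kelly. SNORD114-20 rose in BE(2)C by 0.94, as did SNORD113-6 by 0.54, SNORD114-11 by 0.33 and MIR543 by 0.52, and the call of the SNORD114-20 difference was lost in 9 of the 12 refits. The protein-coding genes DLK1 and RTL1 of the region differed from each other. DLK1, expressed from the paternal chromosome, was near 12 in all 4 groups and had changes of -0.00 and -0.02. RTL1, also paternal and at a mean of 10.20 in untreated Kelly, had changes of 0.03 in Kelly and -0.38 in BE(2)C, where it fell. Its difference of 0.41 was called higher in Kelly (adjusted p = 0.0127), the direction of most called small RNA differences.

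The median untreated level of the 53 microRNA genes was 3.03 in Kelly and 4.24 in BE(2)C, and that of the 40 snoRNA genes was 2.92 and 6.14. A gene near the bottom of the scale in Kelly cannot show a fall, so the absence of falls there does not show that the region responds differently. The 25 small RNA genes with a called difference, 24 of them higher, were reduced to 8 by leaving out dim genes and to 16 by leaving out array 1 of untreated Kelly. Without any other single array the count lay between 17 and 26.

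**Figure D4:**
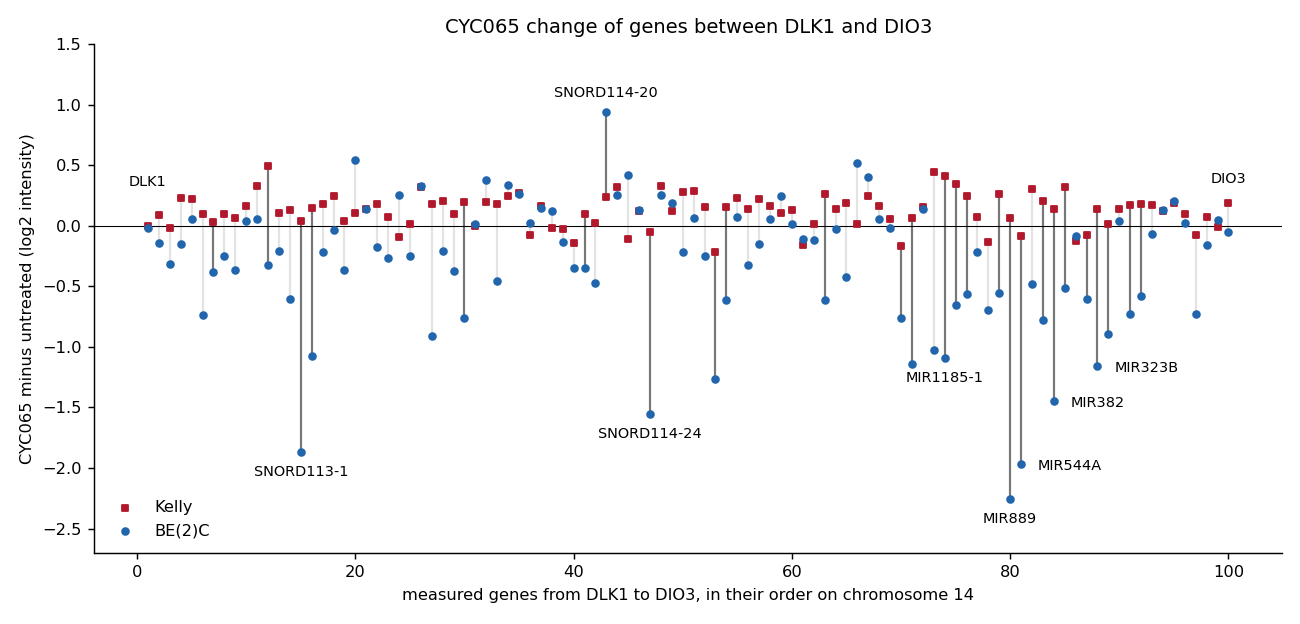
Log2 change after CYC065 of each measured gene between DLK1 and DIO3, in chromosome order along the horizontal axis, for Kelly and BE(2)C. The BE(2)C points dip below 0 in several runs of neighbouring small RNA genes, while the Kelly points stay near or above 0, and the fall of MIR889 is the deepest among the microRNA genes named in the text.

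Opposite calls were rare. Among 7324 genes called in either line, 11 were called in opposite directions, 8 with the higher and 3 with the lower change in Kelly. PPP2R3A, a regulatory subunit of protein phosphatase 2A, was 6.58, 6.62 and 6.71, then 6.43, 6.42 and 6.51 in Kelly, and 4.18, 4.15 and 4.28, then 4.45, 4.61 and 4.57 in BE(2)C. PAXBP1 had changes of -0.21 in Kelly and 0.29 in BE(2)C. The steps of both genes were small but the groups did not overlap.

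Several of the most negative differences belonged to genes whose untreated level was higher in Kelly. HOXD13, a posterior HOX gene, went from 8.64, 8.44 and 8.71 to 7.29, 7.26 and 6.97 in Kelly. In BE(2)C it was 6.11, 5.67 and 5.78, then 6.06, 5.96 and 6.07, and those groups overlapped. The difference was -1.60 (adjusted p = 0.000437). ALX1, a homeobox gene, had changes of -1.67 in Kelly from a mean near 7 and of -0.06 in BE(2)C from a mean under 5. TIGD2, ASXL3, C2CD4A, SHISA2 and METTL18 were further genes of this kind among the 15 most negative.

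This was examined over 14249 genes at a level of 6 or more in either untreated line, grouped by untreated Kelly level minus untreated BE(2)C level after removing the median offset of -0.18. A lower change in Kelly was called for 4.57% of genes within the middle group of similar level. It was called for 14.7%, 19.1% and 19.7% of genes in the 3 groups of increasingly higher Kelly level, and for 2.79%, 2.81% and 3.41% in the 3 groups of increasingly lower Kelly level. The higher change in Kelly was called for 0.575% of the middle group. It was called for more at both ends: 4.55% (4 of 88) of the group with by far the lower Kelly level and 3.11% (6 of 193) of that with by far the higher. The untreated arrays enter both quantities, and the levels come from array sets deposited separately, so the relation is a description. MYCN, TOB1 and MED17 had large differences at similar measured untreated levels. The part of untreated level in the differences was not tested.

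**Figure D5:**
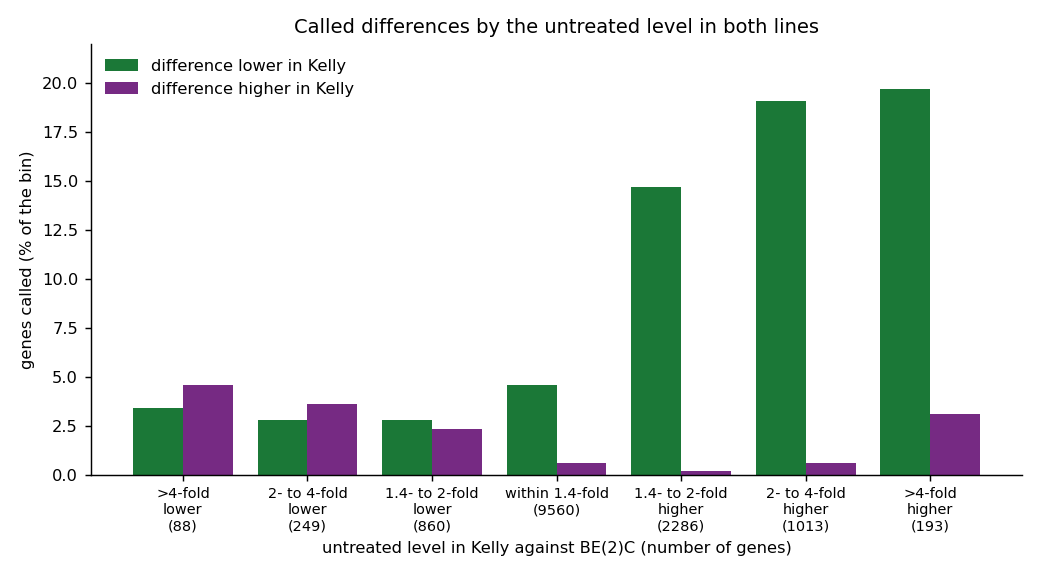
Percent of genes with a called lower or higher change in Kelly, by untreated Kelly level against untreated BE(2)C level. The share with the lower change rises from 4.57% in the middle group to 19.7% in the group with the highest relative Kelly level.

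The promoters of genes with different patterns were searched for 5 short motifs. The window ran from 250 bases before to 50 after the RefSeq start, and 15152 tested genes had one. The canonical E-box, CACGTG, which MYC proteins bind, was in 8.6% of all promoters, in 10.9% of the 873 genes with the lower change in Kelly and in 10 of 33 promoters (30.3%) of genes lower after scaling. The core of the cyclic AMP response element, TGACGT, was in 9.6%, 14.7% and 24.2%. The GC box, GGGCGG, was in 56.6% of all, 69.1% of the lower and 45.5% of the 66 higher genes. The AP-1 site, TGANTCA, was in 6.3% of all, 3.8% of the lower and 13.6% of the higher genes, and the TATA box, TATAAA, in 9.7%, 6.6% and 13.6%. Of the higher genes 9.1% had the E-box and 4.5% the response element core. Of the 33 genes lower after scaling 21.2% had a TATA box, 60.6% a GC box and 3.0% an AP-1 site. Of 29 genes higher after scaling 10.3% had the E-box, 17.2% the response element core and 10.3% a TATA box. The genes that fell in both lines gave shares near those of the genes with the lower change in Kelly, at 9.6% for the E-box, 15.4% for the response element, 69.3% for the GC box, 4.6% for AP-1 and 5.8% for TATA. Both strands were searched, and a match is a description, not a binding site.

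Promoters of 4 genes that the results turn on are given from RefSeq on GRCh38.p14, with the matched motifs in capitals on either strand. MYCN held 3 GC boxes, RGS2 1 response element core and 1 GC box, CCNG2 1 E-box and 4 GC boxes, and HES1, the gene that fell in BE(2)C alone, 1 response element core and no GC box.
MYCN promoter, chr2:15940300-15940599, plus strand: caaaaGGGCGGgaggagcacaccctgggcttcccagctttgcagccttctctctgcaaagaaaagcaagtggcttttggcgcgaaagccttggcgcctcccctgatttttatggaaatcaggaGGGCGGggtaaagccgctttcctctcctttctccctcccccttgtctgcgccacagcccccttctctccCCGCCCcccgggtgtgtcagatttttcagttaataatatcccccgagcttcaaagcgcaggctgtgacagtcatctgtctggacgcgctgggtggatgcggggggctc
RGS2 promoter, chr1:192808789-192809088, plus strand: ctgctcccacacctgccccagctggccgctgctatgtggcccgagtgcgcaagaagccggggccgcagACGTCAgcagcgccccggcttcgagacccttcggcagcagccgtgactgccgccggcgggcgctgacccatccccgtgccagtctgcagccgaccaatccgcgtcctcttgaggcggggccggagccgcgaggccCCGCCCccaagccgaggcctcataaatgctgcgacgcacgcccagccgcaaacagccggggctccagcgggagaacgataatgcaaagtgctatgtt
CCNG2 promoter, chr4:77156957-77157256, plus strand: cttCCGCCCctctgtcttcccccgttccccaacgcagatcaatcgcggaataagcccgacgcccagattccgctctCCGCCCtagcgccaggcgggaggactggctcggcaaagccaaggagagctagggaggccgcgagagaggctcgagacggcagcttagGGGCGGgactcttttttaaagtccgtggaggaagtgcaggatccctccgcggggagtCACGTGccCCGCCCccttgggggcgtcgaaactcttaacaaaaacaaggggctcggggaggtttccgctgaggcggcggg
HES1 promoter, chr3:194135898-194136197, plus strand: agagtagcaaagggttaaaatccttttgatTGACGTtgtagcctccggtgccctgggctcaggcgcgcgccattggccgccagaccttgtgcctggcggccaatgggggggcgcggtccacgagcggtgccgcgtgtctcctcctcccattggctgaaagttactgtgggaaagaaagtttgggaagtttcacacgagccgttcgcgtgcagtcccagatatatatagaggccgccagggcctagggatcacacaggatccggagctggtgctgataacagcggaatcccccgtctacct

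The other 2 human lines of the series give a reference for the sizes. SKNAS arrays were deposited with the Kelly arrays and SH-SY-5Y arrays with the BE(2)C arrays, and neither line carries MYCN amplification. SKNAS is labelled 1 µM in its title and 5 µM in the treatment protocol, so its dose is not settled. The genes lower in both Kelly and BE(2)C had median changes of -0.36 in SKNAS and -0.44 in SH-SY-5Y, beside the -0.63 and -0.34 above. The genes with the lower change in Kelly had medians of -0.70 in Kelly, -0.22 in BE(2)C, -0.30 in SKNAS and -0.43 in SH-SY-5Y. Both sets were chosen by their Kelly and BE(2)C values, so the medians in those 2 lines are partly fixed by the choice.

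The SKNAS change minus the SH-SY-5Y change, which crosses the same 2 array sets in the same order, was called for 456 genes (1.39%), 291 higher and 165 lower. Of the 1157 genes with the lower change in Kelly it was lower for 33 (2.85%) and higher for 145 (12.5%), against 0.503% and 0.887% of all genes. Line and array set cannot be told apart in either comparison.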

How the data were processed

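The comparison used 12 of 24 human arrays, and the SKNAS and SH-SY-5Y values all 24. The authors deposited log2 expression values for 70523 rows of the array, 68993 of them other than controls. RMA, affy and limma are named per the submitters' processing notes, without versions, and the annotation and genome build behind the rows are not given in the sources used here. Rows carry no gene names, so a row was named where its BE(2)C and SH-SY-5Y mean change and mean level equalled the log2 values of a symbol in the authors' deposited table within 1e-07. Of 33720 symbols 32803 (97.3%) were named, 26584 by 1 row and 6219 by the mean of 2 rows, of which the brighter was tested. The p-values of the authors' deposited table were not used.

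The analysis used R 4.3.3 with limma 3.58.1, and Python 3.11.15 with pandas 2.3.3. One limma model with 4 group means and empirical Bayes moderation gave all changes and differences, with Benjamini-Hochberg adjustment over all genes and no covariates. The scaled difference used the slope described in the report, and SKNAS and SH-SY-5Y came from a fit of 8 group means. No normalization was added. Members and gene lists were chosen with earlier results of these data known.

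Genes named in the text came from a rule. It took the 15 most negative and 15 most positive called differences at an untreated level of at least 6 in either line (small RNA, clone and open reading frame names left out), up to 10 opposite calls, the 10 largest falls and 5 largest rises in BE(2)C, up to 4 members per list, a set of fixed genes, and the 10 most alike falls of at least 2-fold. Other called members of a list are named as such, and a gene or region picked after its values were seen is said to be. Some genes that the rule takes are not reported here. On simulated data for the Kelly minus BE(2)C difference over 32803 genes, 16% of genes changed 1.25-fold, 76% at 1.5-fold, 94% at 2-fold and 100% at 4-fold were called, with 3 false calls. Arrays have no read depth, and 3 arrays a group limit the precision. Replicate numbers of the titles were checked for pairing: same-numbered arrays of the 2 lines had correlations of deviations between -0.078 and 0.088, so they were treated as unpaired. Alternatives covered normalization, centring, dim genes, rows, variance model, array weights, a minimum fold, the replicate block and each array left out.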

Additional observations from a re-analysis of the deposited data

Results flagged for a closer look

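The 1396 genes with a called difference are listed here because the contrast between the lines was itself tested. Of them 11 had opposite calls in the 2 lines. The change was lower in Kelly for MIR942 (-0.75), PPP2R3A (-0.52) and PAXBP1 (-0.49). It was higher in Kelly for MIR1185-1 (1.51), MIR1185-2 (1.00), RP11-247A12.1 (0.67), HSD3BP4 (0.60), RP11-285F7.2 (0.55), RP11-1049H7.2 (0.50), LALBA (0.45) and MIR4328 (0.41). No gene level was screened for a single outlying array, since each group held 3.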

How the results depend on the processing

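Every result below is a number of called genes unless a slope is named, and the main values are 1396 for the difference, 6793 for Kelly, 2271 for BE(2)C, 148 for the scaled difference, 456 for SKNAS minus SH-SY-5Y, 333 for members of the gene lists and 1.803 for the slope. A minimum fold of 1.5 left 444 differences, 1295 genes in Kelly, 369 in BE(2)C, 190 in SKNAS minus SH-SY-5Y and 150 list members. Centring each array on its median gave 96 scaled differences and 257 for SKNAS minus SH-SY-5Y, and array weights gave 1273 for the latter. The slope was 1.602 over all rows, and a slope of 0.75 times the main one, an alternative chosen after seeing the data, gave 477 scaled differences. With only its own 6 arrays BE(2)C had 1224 calls. Leaving out 1 array at a time gave 892 to 1381 differences, 4934 to 6897 genes in Kelly, 1502 to 2575 in BE(2)C, 67 to 192 scaled differences, 312 to 653 for SKNAS minus SH-SY-5Y, 247 to 319 list members and slopes of 1.65 to 1.894. The lowest counts of differences and of BE(2)C genes came without array 3 of untreated Kelly and array 3 of untreated BE(2)C. The scaled count lay between 67 and 93 without any 1 of 10 arrays, the exceptions being treated Kelly array 6 and treated BE(2)C array 4.

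With the replicate number as a block, 775 differences were called, 109 higher and 666 lower in Kelly. As the numbers do not pair the arrays, this is not read as a weaker effect, and no block could be fitted for the changes within a line or the scaled difference because untreated and treated arrays carry different numbers. The split of Kelly calls into higher and lower moved from 3070 and 3723 to 1291 and 3871 with median centring, 6150 and 3292 with housekeeping centring, 3891 and 3410 with quantile normalization, and 5369 and 4264 with array weights. The median difference was 0.037 as deposited and ranged from -0.020 to 0.061 over the scalings. The cause of these shifts was not tested. Of 149 named genes with a called difference 65 were lost at the minimum fold, 34 with the block and 10 to 22 without an array, and 0 were reversed.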

Other observations

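Of 19 circadian genes 4 had the lower change in Kelly (21.1%, against 3.53% of all genes) and 0 the higher. NFIL3, a bZIP repressor that opposes the clock's D-box activators, had changes of -1.01 in Kelly and 0.08 in BE(2)C, CIART, a repressor of the core clock, of -1.03 and -0.18, PER2 of -0.70 and -0.31, and HLF of -0.30 and 0.12. The call of HLF was lost in 6 of the 12 refits that left out an array. Of 23 SOX and homeodomain genes 4 had the lower change in Kelly, and SOX9, a neural crest factor, had changes of -1.19 and -0.59. Among 12 protocadherins outside the gene clusters 4 had the lower change, with PCDH18 at -2.22 and -1.32. The calls of PCDH1, PCDH7 and PCDH17 were lost in 10, 11 and 11 of the 12 refits that left out an array. Of 23 protein phosphatase 1 subunits 3 had the lower change, and PPP1R3C, which targets the phosphatase to glycogen, had changes of -1.39 and -0.28.

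The remaining lists held few called differences, beside 3.53% of all genes with the lower and 0.729% with the higher change in Kelly. The lower change in Kelly was called for 1 of 10 polyamine genes (AMD1, at -1.28 and -0.70), 2 of 11 nuclear noncoding and snoRNA host genes (SNHG12 and EPB41L4A-AS1), and 2 of 18 heat shock genes (HSF2 and BAG3, each lost in 10 of 12 refits that left out an array). In the hypoxia list 1 of 22 was lower (ANKRD37) and 1 higher (P4HA1, lost in 10 of the 12 refits), and in the NF-kB list of 24 REL was lower and NFKBIA higher. Of 69 replication-dependent histone genes 10 fell in Kelly and 17 in BE(2)C, and 2 were lower and 1 higher in the difference. HIST1H2AB, the higher one, was 9.87, 9.83 and 9.80, then 9.85, 9.98 and 10.08 in Kelly, and 10.32, 10.38 and 10.36, then 9.88, 9.84 and 9.89 in BE(2)C, so only the BE(2)C groups were apart. Of 275 C/D and H/ACA box RNA genes 8 were lower (2.91%) and 13 higher (4.73%), and of 6 vault RNA genes 1 was higher (VTRNA2-1, lost in 9 of the 12 refits). Of 12 housekeeping genes TBP was lower (-0.62 and -0.14).

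Several genes picked after their values were seen fell in both lines but had the higher scaled difference. ARID5B, a chromatin-associated factor, had changes of -0.71 in Kelly and -1.11 in BE(2)C, BAMBI, a decoy receptor for TGF-beta signalling, of -0.88 and -1.17, and IFRD1, a transcriptional coregulator, of -0.93 and -1.05. SGK1, a kinase induced by glucocorticoids and serum, also had the higher scaled difference but fell in BE(2)C and was not called in Kelly. It was 3.84, 3.84 and 3.85, then 3.83, 3.84 and 3.88 in Kelly, and 4.82, 4.85 and 4.86, then 4.34, 4.34 and 4.37 in BE(2)C.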
